A study of Mus musculus with 16 samples.

Results

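Acetylation of histone H3 at lysine 27 (H3K27ac), which marks promoters and enhancers in use, was followed in mouse dendritic cell development at 3 genes of transcription factors of classical dendritic cells, Zbtb46, Batf3 and Irf4. The members were all regions of 4 deposited lists that overlap 3 windows of the mouse build mm9. The window of Zbtb46 was chromosome 2 from 181115000 to 181205000, that of Batf3 was chromosome 1 from 192905000 to 192945000, and that of Irf4 was chromosome 13 from 30830000 to 30880000. They held 82 of the 273958 listed regions, with 20 for Zbtb46, 33 for Batf3 and 29 for Irf4. Regions of different lists often cover the same place, and joining overlapping ones gave 22 elements, 6 for Zbtb46, 7 for Batf3 and 9 for Irf4, numbered here along the chromosome.

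All cells were sorted from mice of the C57BL/6 strain, and no further allele or treatment is labelled. The 4 groups were multipotent progenitors (MPP), common dendritic cell progenitors (CDP), and the mature classical (cDC) and plasmacytoid (pDC) dendritic cells, with 2 H3K27ac libraries each. Each list compares a pair of groups: CDP with MPP, with cDC or with pDC, or the mature types with each other. The labels used here do not state age, sex or the number of animals, and the input and RNA samples of the series were not used here.

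Zbtb46 encodes a zinc finger repressor whose expression marks classical dendritic cells and their committed precursors among immune cells. Batf3 encodes a basic leucine zipper factor of the AP-1 family that is required for the cross-presenting branch of these cells. Irf4 encodes an interferon regulatory factor that acts in the other branch, where it supports migration and presentation to helper T cells, and it is also known from B and plasma cells. CDP are the progenitors from which both cDC and pDC arise, so the gain of acetylation at these genes can be read on either side of that branch.

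The 3 genes are shown first by the 250 bases upstream of the start given for each in a RefSeq table (build GRCm38.p6). A start site in use is where H3K27ac of an active gene is usually found. Capitals mark matches on either strand to 5 short motifs: TGANTCA of AP-1, GAGGAA as the core of PU.1 sites, the TATA box TATAAA, the E-box CACGTG and the GC box GGGCGG.
Zbtb46, chr2:181424389-181424638, minus strand: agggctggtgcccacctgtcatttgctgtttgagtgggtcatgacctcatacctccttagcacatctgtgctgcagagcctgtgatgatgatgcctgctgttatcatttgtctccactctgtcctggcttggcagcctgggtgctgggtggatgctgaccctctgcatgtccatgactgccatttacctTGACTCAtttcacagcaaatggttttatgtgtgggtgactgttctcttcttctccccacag
Batf3, chr1:191098164-191098413, plus strand: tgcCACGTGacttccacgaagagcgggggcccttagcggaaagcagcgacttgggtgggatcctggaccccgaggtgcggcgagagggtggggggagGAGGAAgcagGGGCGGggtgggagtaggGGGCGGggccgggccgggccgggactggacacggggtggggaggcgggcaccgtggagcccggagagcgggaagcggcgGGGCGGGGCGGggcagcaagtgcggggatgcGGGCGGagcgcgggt
Irf4, chr13:30748983-30749232, plus strand: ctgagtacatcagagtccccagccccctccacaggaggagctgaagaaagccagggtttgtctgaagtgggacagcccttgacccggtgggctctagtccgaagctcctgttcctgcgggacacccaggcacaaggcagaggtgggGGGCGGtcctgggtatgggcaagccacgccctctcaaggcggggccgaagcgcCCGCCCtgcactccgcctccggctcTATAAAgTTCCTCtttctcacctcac

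The Batf3 sequence is rich in CG pairs, with 27 against a median of 6 over all 32851 upstream windows of the table, and holds 5 GC boxes, of which 1 pair overlaps. The Irf4 sequence has 11 CG pairs, 2 GC boxes, and a TATA box that begins 26 bases before the start. The Zbtb46 sequence has 0 CG pairs and 1 AP-1 match. Its start lies 68.9 kb inside the RefSeq gene model, which is 122.3 kb long and has 10 transcripts. That start may not be the one used in dendritic cells, so the sequence may not be a promoter. This was not tested. Of all upstream windows, 6.75% hold the AP-1 motif, 23.3% the PU.1 core, 12.4% the TATA box, 6.02% the E-box and 32.7% the GC box. These are matches of letters only. The positions are of another build than the lists, so they were not set against the H3K27ac regions, and no listed region is called a promoter, exon or intron here. Neighbouring genes may share a window: Nsl1 is the next gene before Batf3 in RefSeq, Exoc2 is next to Irf4, and Zgpat and Lime1 overlap the Zbtb46 model.

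Signals are the authors' values per library and region. They were scaled separately in each list, so levels were compared within a list only, and the read depth is unknown. The lists held 60816 to 76865 regions. Over all regions of a list, the median log2 ratio of the second-listed to the first-listed library was 0.50 for cDC and -0.31 for MPP. With 2 libraries a side, the smallest p of an exact permutation test (two-sided) is 0.333. Regions were therefore tested with limma on log2(signal + 1) over every region of a list, and a region is said to be called, or to have risen or fallen, where the Benjamini-Hochberg adjusted p was below 0.05. The authors had listed these regions, each with a direction, from the same libraries, so the limma p-values are not independent of that choice. Being listed does not mean a small p, because the authors' deposited −log10 p reached down to 0.301. Among the members it reached down to 0.564, at Batf3 in the CDP and pDC list. The limma p-values rest on the spread between the 2 libraries of a cell type, drawn towards a trend of the variance over all regions of the list. That spread may be technical.

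Summed over the listed regions of a window, H3K27ac was highest in cDC at Zbtb46 and Batf3 and highest in pDC at Irf4. At Zbtb46, the summed signals in the CDP and cDC list were 1199 and 1376 for CDP compared with 8102 and 9371 for cDC over 10.85 kb, a 6.78-fold difference. In the CDP and pDC list, over 6.2 kb, CDP had Zbtb46 sums of 831 and 1023 and pDC of 3204 and 3681, 3.71-fold more in pDC. In the cDC and pDC list, over 11 kb, the Zbtb46 sums were 7913 and 9208 for cDC compared with 4520 and 5096 for pDC, a 1.78-fold difference. The libraries of the higher cell type lay above those of the other in each of these comparisons, and the mean signal per kb was 805 in cDC against 119 in CDP, and 778 in cDC against 437 in pDC.

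At Batf3, cDC had sums of 5458 and 7484 against 3500 and 3193 in CDP over 11.05 kb, which is 1.93-fold. Against pDC, the Batf3 sums of cDC were 5165 and 6845 against 2420 and 2736 over 9.15 kb, which is 2.33-fold. In the sums, pDC did not exceed CDP at this gene: in their list CDP had 1950 and 2015 against 1386 and 1641 in pDC over 4.5 kb, 1.31-fold more in CDP with no overlap of the libraries. Of the 12 single regions behind these sums, 4 were higher in pDC by their mean log2 signal, 2 of them without overlap, and none of the 4 was called.

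Irf4 had the opposite order of the mature cell types. Its sums were 4257 and 6527 for pDC compared with 1119 and 2315 for cDC over 7.2 kb, a 3.14-fold difference, and 3629 and 5722 for pDC compared with 1009 and 1178 for CDP over 6.9 kb, a 4.27-fold difference. Against CDP, cDC was 1.65-fold higher over 4.45 kb, with 1365 and 2451 against 1022 and 1296. The groups of this comparison did not overlap, but they lay close together, and the log2 ratio was 0.24 without the second-listed cDC library as against 0.72 with it. Without that library, pDC exceeded cDC by 2.27 on the log2 scale in place of 1.65.

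**Figure D1:**
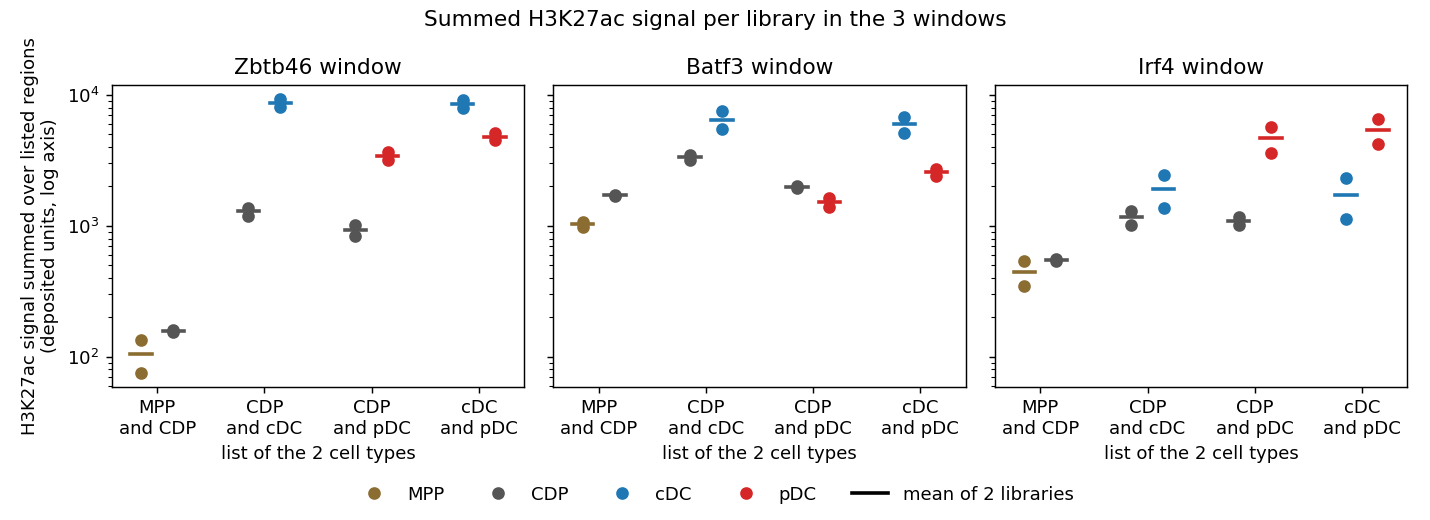
Each point is the H3K27ac signal of 1 library summed over the listed regions of a window (deposited units, log axis), for each list of 2 cell types, and the bar is the mean of the 2 libraries. At Zbtb46 and Batf3 the cDC points are the highest of their lists, while at Irf4 the pDC points, from 3629 to 6527, are the highest. Levels of different lists are not comparable.

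Of the 19 member regions in the CDP and cDC list, 9 were called higher in cDC and 2 higher in CDP by limma. Among all regions of that list 22.0% were called, 7.64% higher in cDC and 14.4% higher in CDP. The log2 ratio of cDC to CDP had a median of 0.98 over the 19 regions and of -0.19 over all 76865. The 9 regions were all 6 of Zbtb46, 1 of 7 at Batf3 and 2 of 6 at Irf4. Both cDC libraries lay above both CDP libraries in 12 of the 19, against 22.0% of all regions, and below them in 4, against 36.0%. The 19 regions were longer than the list as a whole, with a median of 1200 bp against 500 bp. The part of length in these counts was not tested.

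In the CDP and pDC list, 8 of 24 member regions were called higher in pDC, 4 at Zbtb46 and 4 at Irf4, and 2 higher in CDP, against 25.2% and 19.7% of all regions, or 44.9% in either direction. The genes differed among themselves here: 4 of 4 regions at Zbtb46, 4 of 8 at Irf4 and 0 of 12 at Batf3 were called higher in pDC. At Batf3, 1 of the 12 was called higher in CDP, and 3 with equal library totals. The pDC libraries were both higher in 13 of the 24 regions and both lower in 7, against 39.7% and 37.8% of all regions.

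Between cDC and pDC, 6 of 28 member regions were called higher in cDC and 3 higher in pDC, against 9.32% and 23.3% of all regions, or 32.6% in either direction. Without overlap of the libraries, 11 were higher in cDC and 6 in pDC, against 26.0% and 41.8%. The log2 ratio of pDC to cDC had a median of -0.28 over the 28 regions and of 0.22 over the list. The MPP and CDP list had 1 call among 11 member regions, higher in CDP, against 8.42% of all regions called higher in CDP, 11% called higher in MPP and 19.4% called in all. Both CDP libraries lay above both MPP libraries in 8 of the 11, against 26.8%, and below them in 0, against 32.2%.

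**Figure D2:**
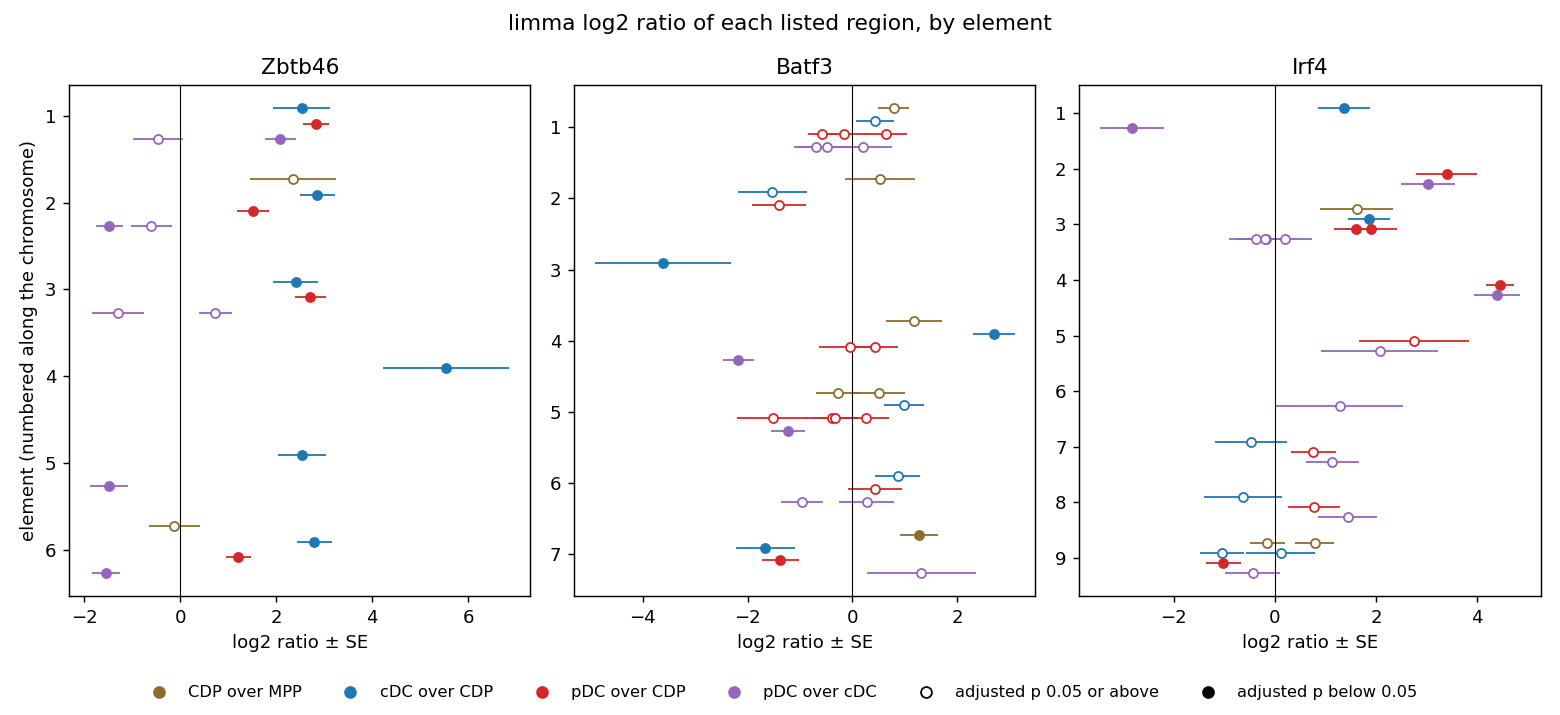
Points are the limma log2 ratios of single listed regions with their SE, placed by element (numbered along the chromosome, y axis) and coloured by comparison, and filled where the adjusted p was below 0.05. All Zbtb46 points for cDC over CDP and pDC over CDP lie to the right of 0 and are filled. At Irf4 element 4, pDC exceeds CDP and cDC by log2 ratios of 4.45 and 4.39.

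Zbtb46 gained H3K27ac from CDP to cDC at every element, most of it at a pair of strong elements. Element 2, on chromosome 2 from 181169751 to 181174050, was the strongest. It held 53.2% and 49.9% of the signal summed over the window's listed regions in the cDC libraries. Its signals were 498 and 767 for CDP compared with 4307 and 4679 for cDC. The cDC libraries were far above and close to each other, with a log2 ratio of 2.86 (SE 0.36, limma adjusted p = 5.23e-07, and 0.0013 with equal library totals). By the authors' deposited −log10 p of 712, this region ranked 58 among the 32994 regions listed as higher in cDC.

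Element 6, from 181192301 to 181194950, had 441 and 377 for CDP compared with 2525 and 3181 for cDC. Its log2 ratio was 2.79 (SE 0.37, limma adjusted p = 1.19e-06, and 0.0013 with equal library totals). Its deposited −log10 p of 448 ranked 161. These 2 elements had like levels per kb in cDC, 1045 for element 2 and 1077 for element 6, and in CDP, 147 and 154.

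The other 4 Zbtb46 elements were weaker. Element 3, from 181174601 to 181176100, had 111 and 89 for CDP compared with 474 and 592 for cDC, and element 5, from 181177501 to 181178900, had 60 and 115 against 464 and 514. Their log2 ratios were 2.40 and 2.54, near those of the strong pair. Element 4, from 181176951 to 181177250, was close to absent in CDP, with signals of 0 and 2 against 58 and 110 in cDC (limma adjusted p = 0.0022). Element 1, from 181146151 to 181146850 in this list, had 89 and 26 for CDP compared with 274 and 295 for cDC. Its limma adjusted p was 0.0019, and it was 0.16 without the second-listed CDP library, 0.067 without the first cDC library and 0.06 without the second.

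From CDP to pDC, Zbtb46 rose at the 4 elements that the list holds, but in other proportions. The largest ratio was at element 1, where CDP had 144 and 151 and pDC had 1144 and 971 from 181145101 to 181146550, a log2 ratio of 2.83 (SE 0.27, limma adjusted p = 4.00e-04). Element 3 had 90 and 79 for CDP compared with 499 and 623 for pDC, a log2 ratio of 2.71 (limma adjusted p = 0.0010). The strong elements of cDC changed less here. Element 2, from 181171101 to 181173600, had 316 and 509 for CDP compared with 943 and 1394 for pDC, a log2 ratio of 1.51 (limma adjusted p = 0.0095). Element 6, from 181193301 to 181194400, had 281 and 284 against 618 and 693, a log2 ratio of 1.21 (limma adjusted p = 0.0087). Calls at these 2 elements were lost without single libraries, with limma adjusted p-values of 0.087, 0.051 and 0.11 for element 2 without the first CDP, the first pDC and the second pDC library, and 0.06 and 0.076 for element 6 without the first and the second pDC library.

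A direct comparison of cDC with pDC showed both patterns at Zbtb46. In cDC, element 2 had 3785 and 4380 against 1275 and 1660 in pDC from 181169801 to 181173250 (log2 ratio of pDC to cDC -1.48, SE 0.28, limma adjusted p = 0.0042). Element 6 had 2473 and 3053 for cDC compared with 836 and 1055 for pDC (log2 ratio -1.55, limma adjusted p = 0.0041), and element 5 had 392 and 456 against 142 and 158 (log2 ratio -1.49, limma adjusted p = 0.018). Without the first-listed pDC library, the limma adjusted p of these 3 regions was 0.15, 0.10 and 0.17, and that of element 5 was 0.11 without the second pDC library. Element 1 was the opposite, with 291 and 282 for cDC compared with 1303 and 1139 for pDC from 181145051 to 181146400, a log2 ratio of 2.08 (SE 0.32, limma adjusted p = 0.0015). The rest of that element, from 181146451 to 181146800, was not called, with 114 and 178 for cDC and 127 and 83 for pDC (log2 ratio -0.47, limma adjusted p = 0.56). The gain of cDC over CDP had been listed from 181146151 to 181146850, so it overlaps the stretch that was higher in pDC only in part. At element 3, which both cell types had gained over CDP, pDC had 594 and 707 against 351 and 433 in cDC in its longer region, with no call (limma adjusted p = 0.14), and in the shorter one cDC had 126 and 167 and pDC 69 and 49 (0.10, and 0.016 with equal totals). Within the Zbtb46 window, cDC was thus called higher at elements 2, 5 and 6 and pDC in the larger part of element 1. Element 1 is centred 30.95 kb and element 2 56.9 kb from the start of the window.

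**Figure D3:**
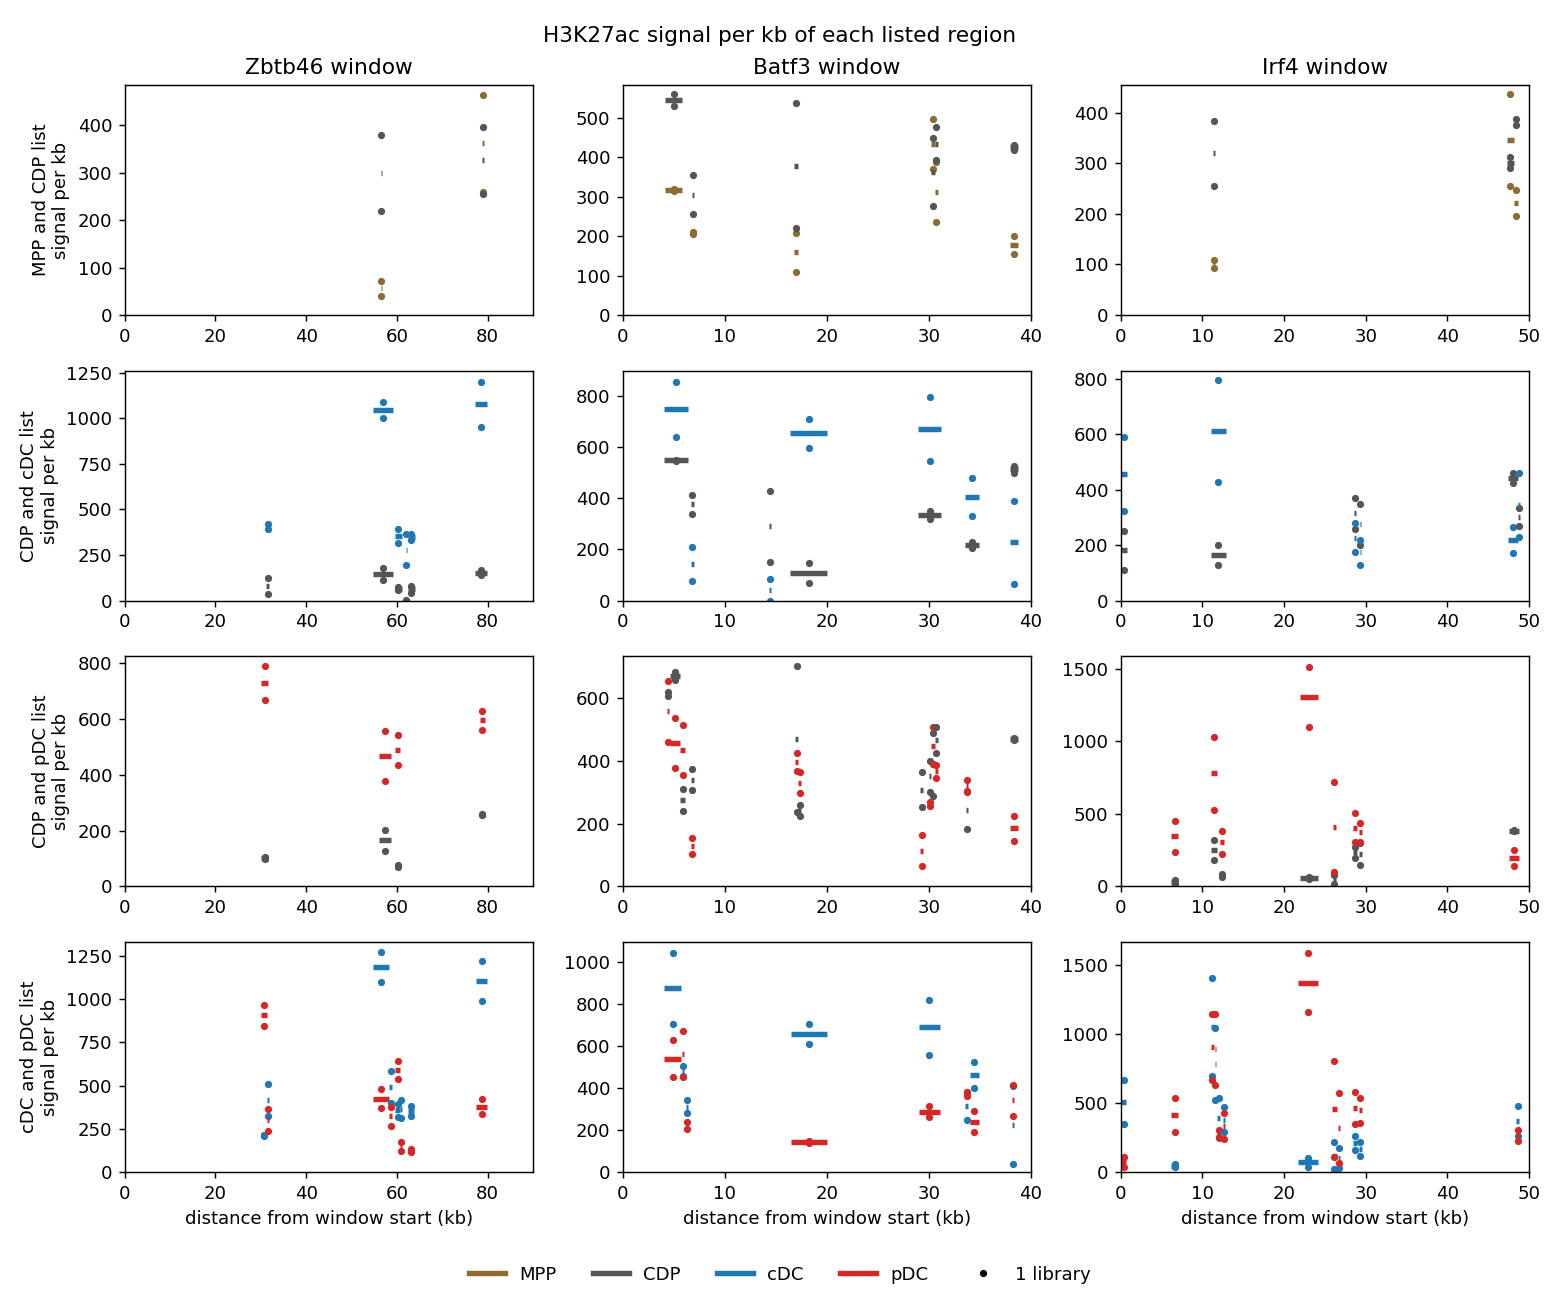
Each horizontal bar is a listed region, placed by its distance from the window start (kb, x axis) at the mean H3K27ac signal per kb of a cell type (y axis, own scale in each panel), and dots are the 2 libraries. In the cDC and pDC list, cDC bars stand above pDC bars near 57 and 79 kb of the Zbtb46 window and near 18 and 30 kb of the Batf3 window. The pDC bars stand above near 31 kb at Zbtb46 and near 23 kb at Irf4.

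Batf3 differed most at element 4, on chromosome 1 from 192921401 to 192925050, with 538 and 250 for CDP compared with 2174 and 2592 for cDC. Its log2 ratio was 2.69 (SE 0.40, limma adjusted p = 6.67e-06, 0.0049 with equal library totals and 0.018 without the trend in the variance). Its deposited −log10 p of 345 ranked 281 among regions higher in cDC. Against pDC the same element had 2208 and 2535 in cDC against 540 and 509. The log2 ratio of pDC to cDC was -2.17 (SE 0.29, limma adjusted p = 7.83e-04, and 0.011 without the trend). The cDC libraries lay above all others in both lists. In the CDP and pDC list only 0.6 kb of the element was listed, in 2 regions of opposite direction without a call: the region from 192921901 to 192922150 had 175 and 59 for CDP compared with 92 and 106 for pDC, and the next had 91 and 79 against 104 and 127.

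The strongest Batf3 element in CDP was not this one. Element 1, from 192909001 to 192911350, had 1294 and 1278 for CDP compared with 1502 and 2009 for cDC, 1.36-fold higher in cDC without a call (log2 ratio 0.43, SE 0.36, limma adjusted p = 0.45). It held 37% and 40% of the signal summed over the window's listed regions in CDP. In pDC it had 378 and 535 against 657 and 682 in CDP in its longest listed part (limma adjusted p = 0.12, and 0.017 with equal library totals). In the adjoining part, from 192910651 to 192911100, pDC was the higher without overlap, with 159 and 231 against 108 and 140 (log2 ratio 0.64, limma adjusted p = 0.23). Element 5, from 192933951 to 192936200, was 2.01-fold higher in cDC than CDP, with 1225 and 1789 against 715 and 786, and did not pass the test (limma adjusted p = 0.056), which it passed with equal library totals (0.0087). Against pDC it was called, with 1178 and 1726 in cDC against 662 and 553 (log2 ratio of pDC to cDC -1.24, limma adjusted p = 0.019), but not without the first or the second pDC library (limma adjusted p = 0.10 and 0.21) and not without the trend in the variance (0.068). Element 6 had 477 and 692 for cDC compared with 301 and 331 for CDP, with a limma adjusted p of 0.15, or 0.030 with equal totals. Against pDC, the longest regions of elements 1 and 6 also passed with equal totals only, higher in cDC (limma adjusted p = 0.0051 and 0.0085, and 0.16 and 0.11 with the deposited signals). With equal totals, Batf3 thus had 3 regions called higher in cDC than in CDP and 0 lower, in place of 1 and 2, and 4 called higher in cDC than in pDC in place of 2. Summed by element, cDC was the higher cell type at elements 1, 4, 5 and 6 in both of its lists, and element 4 showed the largest log2 ratios of the 4.

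At 3 short Batf3 elements CDP had the higher mean signal than the mature cells it was listed with. At element 7, from 192942951 to 192943700, MPP had 150 and 115, below the 323 and 314 of CDP (log2 ratio 1.27, limma adjusted p = 0.016). In the next step CDP had 355 and 350 against 109 and 168 in pDC (log2 ratio -1.37, limma adjusted p = 0.019). Against cDC, CDP had 421 and 400 against 53 and 311, so the cDC libraries differed widely from each other (log2 ratio -1.66, limma adjusted p = 0.030), and the log2 ratio was -0.40 when the first cDC library was left out (limma adjusted p = 0.53). Leaving out either CDP library gave a limma adjusted p of 0.18 and 0.15 in this list, equal library totals gave 0.11, and a fit without the trend gave 0.21. The other 2 calls at element 7 were also lost without single libraries, with limma adjusted p-values of 0.052, 0.14 and 0.057 without the first MPP, the second MPP and the first CDP library (0.051 without the trend), and of 0.11, 0.10 and 0.11 without the first CDP, the second CDP and the first pDC library. Lists that share CDP share its libraries, so the place of CDP above its neighbours at this element rests in part on the same values. Between cDC and pDC, 0.2 kb of element 7 was listed, with 8 and 82 for cDC and 54 and 83 for pDC, which overlap (limma adjusted p = 0.39). Element 2, from 192911651 to 192912000, had 145 and 118 for CDP compared with 27 and 74 for cDC, and 112 and 92 for CDP compared with 46 and 31 for pDC over a slightly shorter region. Neither passed the test (limma adjusted p = 0.092 and 0.065), and the difference from pDC passed it with equal totals (0.031). Element 3, from 192919301 to 192919500, had 86 and 30 for CDP compared with 0 and 17 for cDC. Its call (limma adjusted p = 0.041) was lost without the first-listed CDP library (0.30), without the first cDC library (0.28), with equal library totals (0.11), with a pseudocount of 0.5 (0.059) and without the trend (0.099).

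Irf4 carried the largest log2 ratios between pDC and the other cell types of these 3 genes, and the largest of them in each list lay at element 4. Element 4, on chromosome 13 from 30851901 to 30854100, had 113 and 148 for CDP compared with 2426 and 3325 for pDC, a 21.9-fold difference (log2 ratio 4.45, SE 0.28, limma adjusted p = 1.61e-04, and 0.0046 without the trend). In the cDC and pDC list it spanned 30851651 to 30854200 and had 104 and 257 for cDC compared with 2957 and 4051 for pDC, a 19.3-fold difference (log2 ratio 4.39, SE 0.45, limma adjusted p = 2.87e-04, and 0.0069 without the trend). Its deposited −log10 p of 798 ranked 995 among the 37832 regions listed as higher in pDC, and that of 673 ranked 1072 among 35115 in the list with CDP. The element held 66.9% and 58.1% of the signal summed over the window's listed regions in the pDC libraries of the CDP and pDC list. The CDP and cDC list had no region there, which does not show that CDP and cDC had equal signal.

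A second, weaker element of this kind was element 2, from 30836151 to 30837050. It had 43 and 17 for CDP compared with 217 and 404 for pDC (log2 ratio 3.40, SE 0.60, limma adjusted p = 0.0045), and 36 and 51 for cDC compared with 261 and 486 for pDC (log2 ratio 3.03, SE 0.53, limma adjusted p = 0.0029). Without the second-listed pDC library these had limma adjusted p-values of 0.071 and 0.052. The elements 7 and 8 had higher means in pDC than in both others without a call, with signals of 157 and 262 for pDC compared with 72 and 117 for cDC at element 7. At element 5, 1 library of each mature cell type stood apart: cDC had 12 and 119 and pDC had 61 and 443 from 30855901 to 30856450, so that the cell types overlapped. Element 6 was like it, with 5 and 26 for cDC compared with 10 and 86 for pDC.

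Element 3 of Irf4, from 30841001 to 30842850, was gained in both mature cell types. CDP had 235 and 374 against 791 and 1471 in cDC (log2 ratio 1.86, SE 0.42, limma adjusted p = 0.0014). In the CDP and pDC list it was listed as 2 regions, with 136 and 239 for CDP compared with 397 and 772 for pDC in the first (log2 ratio 1.61, limma adjusted p = 0.023) and 34 and 44 against 113 and 191 in the next (log2 ratio 1.90, limma adjusted p = 0.022). Between cDC and pDC, the 4 regions listed at this element had log2 ratios from -0.38 to 0.20 and none was called, with limma adjusted p-values of 0.64 to 0.82. The summed signals were 531 and 1064 for cDC compared with 534 and 878 for pDC. The cDC call was lost without the first CDP library (limma adjusted p = 0.097), without the second cDC library (0.051) and without the trend (0.050). Those of pDC had values of 0.055 to 0.18 without any 1 of their 4 libraries, and 0.066 without the trend in the first region.

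At a pair of Irf4 elements cDC or CDP was the higher cell type. Element 1, at the window's start from 30830001 to 30830800, had 90 and 202 for CDP compared with 260 and 471 for cDC (log2 ratio 1.37, limma adjusted p = 0.049), and this call was lost without any 1 of the 4 libraries (limma adjusted p = 0.066 to 0.63), with a pseudocount of 0.5 (0.055) and without the trend (0.15). From 30830051 to 30830700 it had 226 and 435 for cDC compared with 72 and 26 for pDC (log2 ratio of pDC to cDC -2.83, SE 0.63, limma adjusted p = 0.0089). Without the second cDC library the limma adjusted p was 0.086, and without the second pDC library it was 0.053. Element 9, at the far end of the window, was higher in CDP. From 30877501 to 30878800 it had 507 and 494 for CDP compared with 187 and 324 for pDC (log2 ratio -1.02, limma adjusted p = 0.047). From 30877451 to 30878650 CDP had 551 and 509 and cDC 207 and 317, without a call (log2 ratio -1.05, limma adjusted p = 0.083, and 0.041 with equal totals). The call against pDC was lost without either CDP library (limma adjusted p = 0.19 and 0.18), without the first pDC library (0.22), and without the trend (0.094).

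The 2 libraries of a mature cell type lay further apart at Irf4 than over the list. In the cDC and pDC list, the second-listed cDC library was the higher in 12 of 12 Irf4 regions, with a median log2 difference of 0.96, against 0.50 over the list. The second-listed pDC library was the higher in 11 of 12, with a median of 0.76 against 0.17 over the list. The medians of the same libraries were 0.26 and 0.20 at Zbtb46 and 0.47 and 0.35 at Batf3. The part of these library differences in the Irf4 results was not tested. At element 4 the lower pDC library, 2957, still lay above the higher cDC library, 257.

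Little of the 3 windows was listed in the step from MPP to CDP. At Zbtb46 the list covered 0.5 kb, with element 2 at 18 and 10 for MPP compared with 55 and 95 for CDP from 181171451 to 181171700 (log2 ratio 2.34, SE 0.90, limma adjusted p = 0.074), and element 6 at 116 and 65 against 99 and 64. At Irf4 it covered 1.65 kb, and element 9 held 82.7% to 95% of the signal summed over these listed regions in each library. Its sums were 508 and 324 for MPP compared with 472 and 460 for CDP, a 1.12-fold difference with overlapping libraries. The strongest region, from 30877301 to 30878150, had the higher mean in MPP, with 372 and 216 against 265 and 247 (limma adjusted p = 0.78). Element 3 of Irf4 had 27 and 23 for MPP compared with 64 and 96 for CDP (log2 ratio 1.61, limma adjusted p = 0.13). The only Batf3 region of this list with the higher mean in MPP was in element 5, from 192935201 to 192935600, where MPP had 199 and 148 and CDP 111 and 179 (limma adjusted p = 0.67). Batf3 had 3.7 kb in all, with 535 and 541 for MPP compared with 901 and 953 for CDP at element 1 (log2 ratio 0.78, SE 0.29, limma adjusted p = 0.062). The log2 ratio of CDP to MPP had a median of 0.78 over the 11 regions and of -0.11 over the list. With equal library totals, the regions of Zbtb46 element 2 and of Batf3 element 1 passed the test (limma adjusted p = 0.047 and 0.020).

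The scaling of the libraries moves the balance of calls in the lists with pDC. When each library's total over autosomal regions was set to 1 common value, the share of calls that were higher in pDC went from 56% to 41.9% in the list with CDP and from 71.4% to 43.6% in the list with cDC. The median log2 ratio over all regions moved from 0.03 to -0.27 and from 0.22 to -0.26, and in the MPP and CDP list from -0.11 to 0.02. Among the 82 member regions, 10 gained a call and 2 lost it. The calls between cDC and pDC went from 6 and 3 to 9 higher in cDC and 3 higher in pDC, and those higher in CDP than in pDC from 2 to 4. Irf4 element 4 kept a log2 ratio of 3.92 over cDC and 4.14 over CDP, and Zbtb46 element 1 kept 1.60 over cDC. Of the 28 member regions in that list 3 changed direction, all of them without a call.

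By gene, the order of the cell types was cDC over pDC over CDP at Zbtb46, and cDC over CDP over pDC at Batf3, where the CDP and pDC difference was 1.31-fold in the sums and called at 1 of 12 regions, or at 3 with equal library totals. At Irf4 the sums gave pDC over cDC over CDP, with those of cDC and CDP nearest to each other. Each list sums its own regions, so the ratios behind these orders do not cover the same stretches. At Irf4, elements 2, 4 and 5 were in both lists with pDC but not in the CDP and cDC list. Which cell types are nearest may in part reflect this. Element 4 alone held 69.5% and 62.1% of the pDC signal summed over the window's listed regions in the cDC and pDC list. Of the 12 Irf4 regions there, 7 had the higher mean in pDC (2 called) and 5 in cDC (1 called). The place of cDC over CDP was not kept when regions were summarised by their median (-0.18 on the log2 scale, 6 regions). MPP lay below CDP in the sums at each gene, with libraries that did not overlap: 134 and 75 against 154 and 159 at Zbtb46, 1067 and 987 against 1719 and 1704 at Batf3, and 535 and 347 against 536 and 556 at Irf4. At Irf4 these groups were almost touching. The log2 ratio of CDP to MPP was 0.58 at Zbtb46 and 0.31 at Irf4 with all libraries, 1.05 and 0.65 without the first-listed MPP library, and 0.22 and 0.029 without the second.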

How the data were processed

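H3K27ac of 4 sorted mouse cell types was measured by chromatin immunoprecipitation and sequencing, with 2 libraries each. Reads were aligned with BWA 0.6.1 to mm9, per the submitters' processing notes, and the title of the series refers to THOR, which calls differential peaks from replicated libraries. The authors' deposited lists give, for each region, bounds, a direction, and a packed field in a unit other than raw counts: signals of 4 libraries, scaled per list, and −log10 of a p-value. Values were assigned to cell types by the order in the list names. This was checked where 2 lists share a region: columns taken as one library kept a near-constant ratio (factor 0.807 to 1.19, SD at most 0.059 on the log2 scale, 10 pairs), and any other pairing gave SDs of 0.46 or more. MPP is in 1 list, where the check placed CDP and so left the other values to MPP. Libraries have no replicate number in the values and are named by their order in the field.

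Each list was fitted with limma 3.58.1 (R 4.3.3; eBayes with trend) on log2(signal + 1), with its 4 libraries and Benjamini-Hochberg adjustment over all its regions, and no region was filtered out. The test was tried on simulated data with 200 changed regions. In the CDP and cDC list of 76865 regions it called 77% of 100 regions changed by 3 on the log2 scale and 4% of 100 changed by 1. In the data 16917 regions of that list were called, so the Benjamini-Hochberg threshold was stricter in the simulation. The simulated shares therefore do not give how often small differences could be detected here, and such differences may have been missed. Window ratios are those of mean summed signals plus 1. The text names, per window and list, the strongest region and the largest called change in each direction (or the largest change where none passed the test), and other regions were chosen after their values were seen, as was the joining into elements. The members and lists were chosen with earlier results of these data known. An mm9 annotation was not used here, so lists of other dendritic cell genes, cell type markers and genes of like pattern were not read. Coordinates are 1-based. Upstream sequences are those of the 3 genes in the RefSeq table, all matched by symbol. Alternatives were other pseudocounts (0.5 and 5), equal autosomal totals, a minimum mean signal of 20, no trend, a deposited −log10 p of at least 10, regions wholly inside a window, medians over regions, and leaving out each library. Tables were handled in Python 3.11.15 with pandas 2.3.3 and numpy 2.4.6, and drawn with matplotlib 3.10.9.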

Additional observations from a re-analysis of the deposited data

How the results depend on the processing

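Of 95 alternative window ratios, 94 kept their direction. The median over regions turned the Irf4 ratio of cDC to CDP to -0.18 on the log2 scale, where 3 of 6 regions were higher in each cell type. That median was 1.11, 2.11 at Zbtb46 (CDP over MPP, pDC over CDP), 0.65, 0.43, -0.25 and -0.58 at Batf3 (the 4 lists in order), and 0.79 and 0.67 at Irf4 (CDP over MPP, pDC over cDC). With equal autosomal totals the log2 ratios were 1.59 and -1.32 at Zbtb46 (pDC over CDP, pDC over cDC) and 0.87, -0.70 and -1.69 at Batf3 (CDP over MPP, pDC over CDP, pDC over cDC). With a deposited −log10 p of at least 10 they were 2.34 at Zbtb46 and 0.89 at Batf3 for CDP over MPP, -1.34 at Batf3 for pDC over CDP, and 2.55 at Irf4 for pDC over cDC, and no Irf4 region of the MPP and CDP list was left. Leaving out 1 library gave 0.22 to 1.05, 2.65 to 2.86, 1.75 to 2.05 and -0.94 to -0.72 at Zbtb46, 0.68 to 0.79, 0.71 to 1.16, -0.52 to -0.27 and -1.41 to -1.0 at Batf3, and 0.029 to 0.65, 0.24 to 1.08, 1.73 to 2.39 and 1.22 to 2.27 at Irf4 (lists of CDP with MPP, with cDC and with pDC, then cDC with pDC). Counts of regions called over a list were 11793, 16917, 31403 and 21605 in that order. They were 7562 and 11234 without the trend in the first 2 lists and 32577 with equal totals in the last. Without 1 library they ran from 4939 to 9531, 7012 to 16780, 16116 to 21033 and 14133 to 23738. The minimum signal removed no region. Of the 31 called member regions 0 changed direction under any alternative run, and 12 kept their call under all of them: 8 of 14 at Zbtb46, 2 of 7 at Batf3 and 2 of 10 at Irf4. Apart from equal totals, regions without a call passed the limma test at Zbtb46 element 2 of the MPP and CDP list (adjusted p = 0.023 without the trend, 0.049 with a pseudocount of 5, 0.048 without the first MPP library), Batf3 element 2 (0.034 against pDC without the trend, 0.028 against cDC without the second cDC library), Batf3 element 5 against CDP (0.042 with a pseudocount of 5, 0.039 without the first cDC library), Irf4 element 3 of the MPP and CDP list (0.034 without the trend), and, without 1 library, Batf3 element 4 of the MPP and CDP list (0.025, second CDP), Batf3 element 7 (0.031, second cDC) and Irf4 element 5 (0.018, first pDC) between cDC and pDC, and Irf4 element 9 between CDP and cDC (0.037, second cDC). Where 1 library was left out, the lone library of its cell type was assumed to vary like the others. The cause of changes under the other scalings, p minimum and median was not tested. No paired analysis was possible because the values carry no replicate number.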
